A study of Homo sapiens with 6 samples.

Results

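The genes described here are MDM2 and MDM4, the inhibitors of the tumour suppressor p53, together with 7 genes that p53 is known to activate, in HEK293 cells carrying inducible forms of the repair enzyme APE1. They were taken as the array rows whose only gene symbol in the platform's annotation was MDM2, MDM4, CDKN1A, ZMAT3, SESN1, RRM2B, BTG2, GADD45A or CCNG1. Of these 9 genes, 8 were found, each on 1 row, among 12448 genes with a row of their own in the table, and all 8 passed the filter on low values. No row carried BTG2 as its only symbol, and the level of BTG2 is not analysed here.

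Total RNA was hybridised to Affymetrix whole-transcript arrays. HEK293 is a human embryonic kidney cell line, and 3 tet-on derivatives of it were compared. The first carries a fusion of ubiquitin to APE1 (ubAPE1), the second wild-type APE1 (wtAPE1) and the third the empty pcDNA-FRT vector (vector). Each line was harvested with doxycycline (2 µg per ml, added 16 h earlier), which switches on a tet-on transgene, and without it, and the medium of all groups held puromycin at 1 µg per ml. The 6 groups have 1 deposited column each, which per the labels stands for 3 biological replicates, so no spread between replicates is in the values used here. Whether each line is a single clone is not given in the sources used here.

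p53 is a transcription factor that is stabilised by DNA damage and other stress and switches on genes for cell cycle arrest, repair, antioxidant defence and cell death. Its target MDM2 is a ubiquitin ligase that marks p53 for degradation, which closes a feedback loop, and MDM2 is also known to attach ubiquitin to APE1. HEK293 cells carry adenoviral early genes whose products bind p53, so its output in this line is known to be altered.

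Levels are log2 array values with each column shifted so that the medians of the 11619 rows that passed the filter are equal. These centred levels are compared between samples and never between genes, because probes of different genes respond differently. A difference of 1 on this scale is a 2-fold difference. In these bulk samples, fewer cells that express a gene and less of its RNA per cell cannot be told apart.

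As a check of the labels, APEX1, which encodes APE1, had centred levels of 10.68 in ubAPE1 cells with doxycycline, 9.75 in ubAPE1 cells without it, 10.71 and 9.62 in wtAPE1 cells with and without it, and 9.60 and 9.41 in vector cells with and without it. With doxycycline the APEX1 level was thus higher by 0.92 in ubAPE1 cells, by 1.09 in wtAPE1 cells and by 0.18 in vector cells. All pairs of columns correlated at 0.950 to 0.990 across the kept rows, and no pair was identical. As deposited, the median row differed between columns by up to 0.25 log2 (wtAPE1 minus vector without doxycycline, -0.25), a shift that the centring removes. Of 9 epithelial and kidney markers, 8 passed the filter (CDH1 did not), with summed linear levels of 1735 to 2256 in the ubAPE1 columns, 2042 and 2142 in the wtAPE1 columns and 2355 and 2359 in the vector columns.

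MDM2 stood higher in both APE1 lines than in the vector line on centred levels, though neither difference passed the test. Its centred level was 8.68 with and 8.70 without doxycycline in ubAPE1 cells, 8.72 with and 8.53 without doxycycline in wtAPE1 cells, and 8.24 with and 8.21 without doxycycline in vector cells. All 4 columns of the APE1 lines lay above both vector columns, with a gap of 0.29 between the lowest APE1-line column and the highest vector column. That gap was the only step in the order of the 6 levels wider than 0.178, the residual SD that the fit pools over all rows, so the order within the APE1 lines and within the vector line is not resolved. Over both doxycycline states MDM2 was 1.38-fold higher in ubAPE1 cells than in vector cells (log2 difference 0.47, SE 0.178) and 1.32-fold higher in wtAPE1 cells than in vector cells (0.40, SE 0.178). Neither difference passed limma's test after adjustment over all 11619 rows (adjusted p = 0.126 and 0.172). Without the ubAPE1 line the wtAPE1 difference is taken from the same columns, so its size is unchanged by construction. In that fit 2296 of the 11619 rows passed limma's test, against 656 with all columns. MDM2 (adjusted p = 0.0262) and MDM4 (adjusted p = 0.0326) were among them, so these calls say little about either gene. By rank, the MDM2 difference for ubAPE1 was number 229 from the top of the 11619 rows.

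MDM2 has an internal promoter that p53 is known to drive. The RefSeq promoter windows of GRCh38.p14 were searched over the 250 bases before each start for the p53 response element, which is 2 adjoining half-sites of 10 bases each, allowing at most 3 of 20 bases to depart from the consensus. The consensus reads the same on both strands, so a match covers both, and the limit of 3 was set after the sequences had been seen. Of the 7 members with a window, MDM2 and SESN1 had a match, against 5.38% of all 27305 genes with a window and 0.71% at 2 or fewer mismatches. The window that holds the MDM2 matches and the one that holds the SESN1 match are printed because these are the members with a match within the 250 bases. MDM2 has 4 windows, and the matches also lie in a second one that overlaps the window printed. Capitals mark the matches, both windows end at the base before the start, and the MDM2 window lies at chr12:68808767-68809016 on the plus strand and the SESN1 window at chr6:109008989-109009238 on the minus strand.
MDM2: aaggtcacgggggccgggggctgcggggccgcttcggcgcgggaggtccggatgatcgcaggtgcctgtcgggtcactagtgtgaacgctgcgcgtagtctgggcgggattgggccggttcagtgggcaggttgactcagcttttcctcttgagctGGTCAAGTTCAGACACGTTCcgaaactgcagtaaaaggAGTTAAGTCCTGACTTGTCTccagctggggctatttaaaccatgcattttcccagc
SESN1: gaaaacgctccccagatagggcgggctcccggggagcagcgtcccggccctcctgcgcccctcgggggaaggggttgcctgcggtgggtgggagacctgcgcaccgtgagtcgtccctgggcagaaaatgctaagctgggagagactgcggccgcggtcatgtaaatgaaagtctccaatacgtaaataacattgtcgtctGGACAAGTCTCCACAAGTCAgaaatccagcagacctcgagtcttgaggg
The first MDM2 match, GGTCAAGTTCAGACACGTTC, starts 94 bases before the start and has 2 mismatches. The second, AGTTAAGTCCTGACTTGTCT, starts 56 bases before it and has 3. The SESN1 match, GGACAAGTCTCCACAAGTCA, starts 49 bases before its start and has 3 mismatches. MDM4, CDKN1A, ZMAT3, BTG2 and CCNG1 had no match in their windows, which says only that these letters are not there. A match is a description of the sequence, and binding by p53 was not measured here.

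MDM4, the partner of MDM2 that blocks p53's activation domain, ran lowest where the ubiquitin fusion was induced. Its centred level was 5.08 with and 5.81 without doxycycline in ubAPE1 cells, 5.46 with and 5.52 without doxycycline in wtAPE1 cells, and 5.83 with and 5.92 without doxycycline in vector cells. All 4 columns of the APE1 lines lay below both vector columns, but ubAPE1 cells without doxycycline stood only 0.02 below the lower vector column. From the highest level to the lowest, 2 steps were wider than 0.178, one below ubAPE1 cells without doxycycline (0.29) and one above ubAPE1 cells with it (0.38). Over both doxycycline states MDM4 was 1.35-fold lower in ubAPE1 cells than in vector cells (-0.43, SE 0.178, limma adjusted p = 0.188) and 1.31-fold lower in wtAPE1 cells than in vector cells (-0.38, SE 0.178, adjusted p = 0.196). The ubAPE1 difference rests on the induced sample, whose level (4.98 as deposited) was near the row filter of 5.03. The difference was -0.10 without the doxycycline column of that line and -0.76 without the other column. Each of these rests on 1 ubAPE1 column, so they are given as sizes only.

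CDKN1A encodes p21, the inhibitor of cyclin-dependent kinases through which p53 arrests the cell cycle. Its centred level was 7.17 with and 7.03 without doxycycline in ubAPE1 cells, 7.25 with and 7.40 without doxycycline in wtAPE1 cells, and 7.38 with and 7.60 without doxycycline in vector cells. The highest level was in vector cells without doxycycline, 0.20 above the next, the single step wider than 0.178. The lowest was in ubAPE1 cells without doxycycline, and wtAPE1 cells without doxycycline overlapped the vector columns. CDKN1A was 0.39 lower in ubAPE1 than in vector cells over both doxycycline states (log2 difference -0.39, SE 0.178, limma adjusted p = 0.266) and differed by -0.17 in wtAPE1 cells against vector cells (adjusted p = 0.625), so neither passed.

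GADD45A, a stress protein known to act in growth arrest and DNA repair, was also nominally lower in the APE1 lines. Its centred level was 7.29 with and 7.45 without doxycycline in ubAPE1 cells, 7.52 with and 7.60 without doxycycline in wtAPE1 cells, and 7.72 with and 7.60 without doxycycline in vector cells. No step in this order was wider than 0.178, and the highest APE1-line column and the lowest vector column differed by 0.00029, so the absence of overlap carries no weight for this gene. The difference from vector cells was -0.29 in ubAPE1 cells and -0.10 in wtAPE1 cells (SE 0.178 each), and neither passed the test.

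CCNG1 encodes cyclin G1, which takes part in the p53 feedback loop through MDM2. Its centred level was 9.12 with and 9.33 without doxycycline in ubAPE1 cells, 9.25 with and 9.05 without doxycycline in wtAPE1 cells, and 9.20 with and 8.70 without doxycycline in vector cells. The lowest column was vector cells without doxycycline, 0.34 below the next, the single step wider than 0.178. Without doxycycline CCNG1 was 1.54-fold higher in ubAPE1 than in vector cells (0.62), and with doxycycline the difference was -0.08. Over both states it was 0.27 in ubAPE1 and 0.20 in wtAPE1 cells against vector cells, with an SE of 0.178, and neither passed the test. Without the vector column that lacks doxycycline these differences were 0.03 and -0.05.

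SESN1 encodes sestrin 1, which restrains the growth kinase complex mTORC1 and takes part in antioxidant defence. Its centred level was 7.10 with and 7.61 without doxycycline in ubAPE1 cells, 7.32 with and 7.33 without doxycycline in wtAPE1 cells, and 7.15 with and 7.05 without doxycycline in vector cells. The level in ubAPE1 cells without doxycycline, an uninduced sample, was 0.29 above the next, the single step wider than 0.178. Its difference from vector cells was 0.26 in ubAPE1 and 0.22 in wtAPE1 cells (SE 0.178 each), and neither passed the test. Without the ubAPE1 column that lacks doxycycline the ubAPE1 difference was -0.02.

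ZMAT3, a zinc finger protein that binds RNA and is a p53 target in growth control, spanned 6.13 to 6.43. It was 6.42 with and 6.43 without doxycycline in ubAPE1 cells, 6.34 with and 6.31 without doxycycline in wtAPE1 cells, and 6.33 with and 6.13 without doxycycline in vector cells. RRM2B encodes the p53-inducible small subunit of ribonucleotide reductase, which supplies nucleotides for repair. It was 5.85 with and 5.89 without doxycycline in ubAPE1 cells, 5.91 with and 5.59 without doxycycline in wtAPE1 cells, and 5.85 with and 5.83 without doxycycline in vector cells. For ZMAT3 the lowest column was vector cells without doxycycline, for RRM2B it was wtAPE1 cells without doxycycline, and the other 5 columns of each gene followed each other in steps under 0.178. Differences from vector cells were 0.19 (ubAPE1) and 0.10 (wtAPE1) for ZMAT3, and 0.03 (ubAPE1) and -0.09 (wtAPE1) for RRM2B, and none passed the test.

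**Figure D1:**
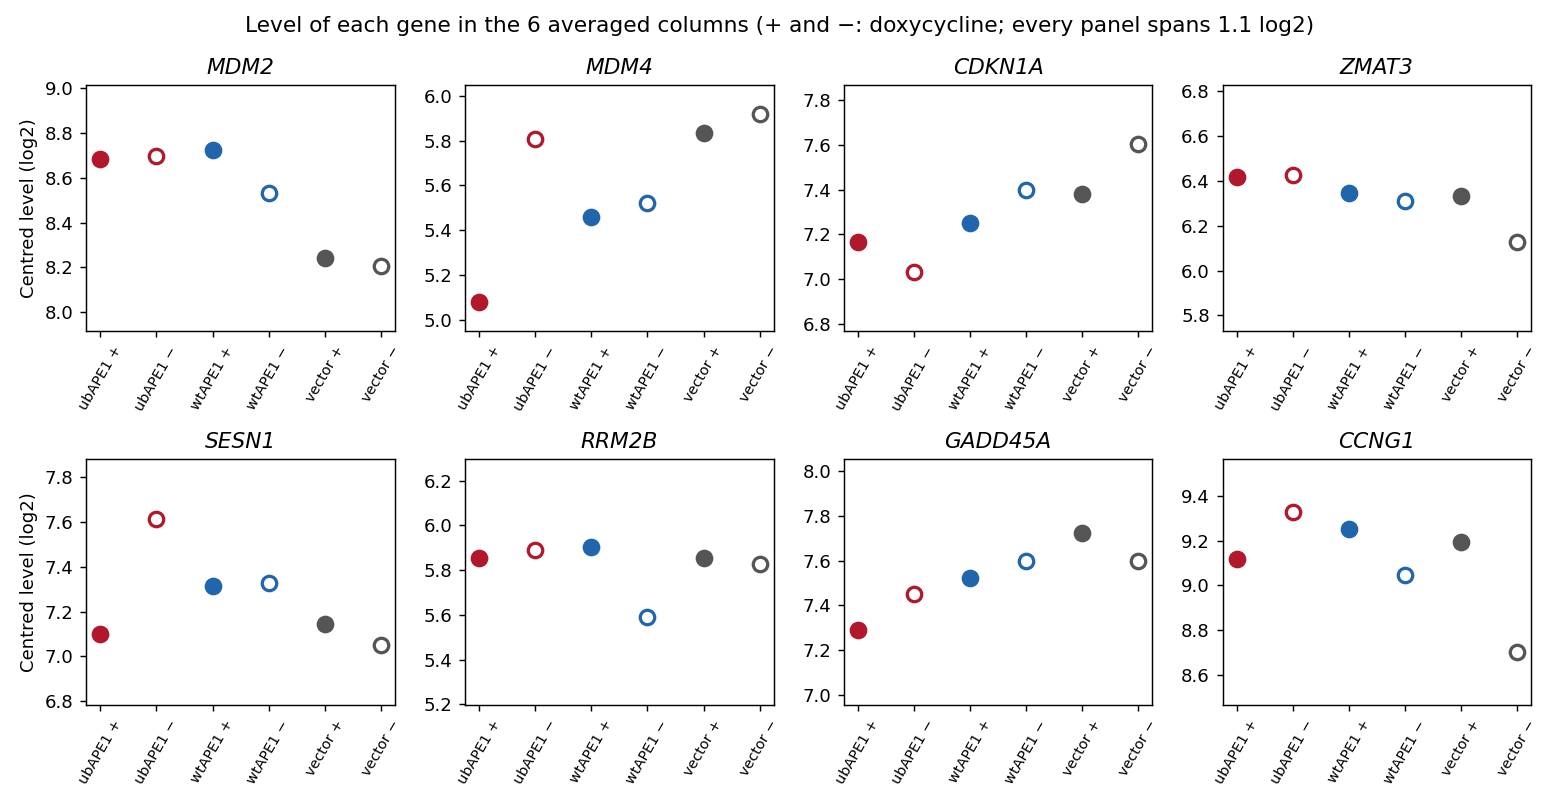
Centred level (log2, vertical axes) of each of the 8 measured genes in the 6 groups, 1 averaged column per point (filled with doxycycline, open without; red ubAPE1, blue wtAPE1, grey vector), with no error bar because the columns are averages. Every panel spans the same height, and MDM2 is the only gene whose 4 APE1-line points (8.53 to 8.72) all lie above the vector points (8.21 and 8.24).

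The first comparison asks what doxycycline, and with it the transgene, did within each line. A doxycycline response is the level with doxycycline minus the level without it, and with 1 column on each side it has no test. In the ubAPE1 line the response of MDM4 was -0.73 (1.66-fold lower), the single member past 1.5-fold in size. This response rests on a column near the row filter of 5.03 (5.08 centred, 4.98 as deposited). At least 1.5-fold lower were 2.75% of all 11619 rows in that line, and 4.46% were past this size either way, so a count of 1 in 8 members says nothing about the group. SESN1 was just inside that size, at -0.51. The other ubAPE1 responses were between -0.21 (CCNG1) and 0.13 (CDKN1A), with MDM2 at -0.01. Of the 8 members 7 were below 0 with a median of -0.10, beside 5277 of 11619 rows below 0 and a median of 0.04.

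In the wtAPE1 line the responses of the members lay between -0.15 (CDKN1A) and 0.31 (RRM2B). MDM2 was at 0.19, CCNG1 at 0.20, ZMAT3 at 0.03, SESN1 at -0.01, MDM4 at -0.06 and GADD45A at -0.08. None was past 1.5-fold, where 0.93% of all rows were. In the vector line, which lacks an APE1 transgene, CCNG1 was highest at 0.49 and CDKN1A lowest at -0.22. ZMAT3 was at 0.21, GADD45A at 0.12, SESN1 at 0.09, MDM2 and RRM2B at 0.03 and MDM4 at -0.08. None was past 1.5-fold in this line either, where 0.895% of all rows were.

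MDM2 and RRM2B thus had responses near 0 in the ubAPE1 and vector lines and their highest in the wtAPE1 line, while MDM4 and SESN1 were near 0 in the wtAPE1 and vector lines. Responses in the ubAPE1 line also ran with gene length over all genes. Over the 2412 shortest and the 2412 longest genes, the median response was 0.21 and -0.12 in ubAPE1 cells, -0.07 and 0.03 in wtAPE1 cells, and -0.02 and 0.05 in vector cells. With the median of genes of like length subtracted, the ubAPE1 response was -0.67 for MDM4 (a gene of 41.7 kb), -0.39 for SESN1 (110.5 kb), -0.42 for GADD45A (3.13 kb), -0.29 for CCNG1 (20.1 kb) and -0.04 for CDKN1A (10.9 kb). MDM4 kept most of its response, that of GADD45A went further below 0, and those of CDKN1A, MDM2 (0.05) and ZMAT3 (0.04) changed sign, which left 6 of 8 below 0. As deposited all 8 ubAPE1 responses were below 0, with CDKN1A at -0.03 and SESN1 past 1.5-fold at -0.68, and in wtAPE1 cells those of MDM4, SESN1 and GADD45A were above 0 (0.02, 0.07 and 0.01).

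The test that the design allows of induced APE1 sets the mean response of both APE1 lines against that of the vector line. No row passed it in limma (0% of 11619 rows; 219 had an unadjusted p under 0.05, and 1 row passed with the additive fit's spread). Among the members the contrast was -0.49 for CCNG1, -0.36 for SESN1 and -0.31 for MDM4, and between -0.24 (GADD45A) and 0.21 (CDKN1A) for the rest, with MDM2 at 0.05 (SE 0.338, adjusted p = 0.9998 for each). In simulated data this test recovered 0% of rows changed 1.5-fold and 14% of rows changed 2-fold, so changes of the sizes seen here were below what it can detect. The common effect of doxycycline over the 3 lines passed in 0.0775% of rows and in no member. Its lowest value was -0.29 for MDM4 (SE 0.145, limma adjusted p = 0.9998), and this was -0.07 without the ubAPE1 line.

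**Figure D2:**
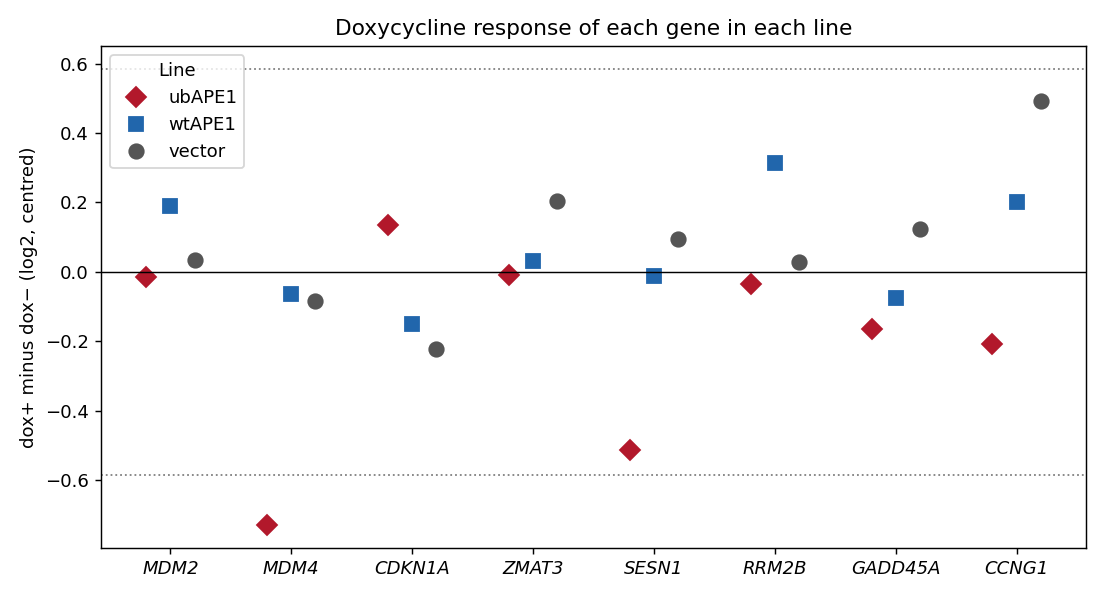
Doxycycline response (dox+ minus dox-, log2, vertical axis) of each gene in the ubAPE1 (red diamonds), wtAPE1 (blue squares) and vector (grey circles) lines, with dotted lines at 1.5-fold. Only MDM4 in the ubAPE1 line (-0.73) lies past a dotted line, and the order of the lines for CCNG1 is -0.21, 0.20 and 0.49.

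The second comparison asks how the lines differ whatever the doxycycline state. Over all rows 539 passed limma's test for ubAPE1 minus vector (4.64%; 126 higher, 413 lower) and 656 for wtAPE1 minus vector (5.65%; 188 higher, 468 lower), and no member was among them. The median member difference was 0.11 for ubAPE1 and 0.0024 for wtAPE1, beside 0.03 over all kept rows for each, and members lay on both sides of 0 in each. MDM2, ZMAT3, SESN1 and CCNG1 were above the vector line in both APE1 lines, and MDM4, CDKN1A and GADD45A below it in both. As deposited, without centring, ZMAT3 lay below it in wtAPE1 cells (-0.08), the MDM2 differences were 0.36 (ubAPE1) and 0.23 (wtAPE1), and the others named kept their side. The GADD45A difference in wtAPE1 cells was 0.02 without vector cells with doxycycline. Leaving out 1 column in turn, the wtAPE1 difference ran from -0.27 to -0.06 for CDKN1A (lowest in size without vector cells lacking doxycycline) and from -0.56 to -0.21 for MDM4 (lowest in size without wtAPE1 cells lacking doxycycline). The 2 comparisons share the vector columns, so this likeness is not independent. In simulated data the test recovered 40% (ubAPE1) and 28.5% (wtAPE1) of rows changed 1.5-fold and 99% of rows changed 2-fold. Differences of the size seen for MDM2 were thus often missed in that setting. Each value is from a single draw and both tests have the same SE, so 40% against 28.5% is not a difference between lines. Fewer rows were changed in the draw than passed in the data, so its adjusted threshold is not that of the data. The draw also gave every row the same normal spread, which the test assumes, so these shares describe that setting only.

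Of the 8 members 3 had no overlap between the APE1-line columns and the vector columns, MDM2 on the higher side and MDM4 and GADD45A on the lower. Over all rows 19.2% had no overlap on the higher side, 15.4% on the lower and 34.6% either way, so the share among the members is near that background. In single doxycycline states, MDM4 was past 1.5-fold in ubAPE1 against vector cells with doxycycline (-0.75), where 6.98% of rows were that much lower and 10.3% past it either way. CCNG1 was past it without doxycycline (0.62), where 1.24% of rows were that much higher and 3.93% past it either way, and CDKN1A (-0.57) and SESN1 (0.56) were just inside it in the same comparison. On centred levels no member reached 1.5-fold between wtAPE1 and vector cells in either state, where 5.63% (with doxycycline) and 7.13% (without) of rows did. As deposited, MDM4 was past it in wtAPE1 against vector cells without doxycycline (-0.64), where 1622 of 11619 rows were. In ubAPE1 against vector cells without doxycycline, CDKN1A was then past it (-0.63) and CCNG1 was inside it (0.57), where 497 rows were past it.

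The fusion and the wild-type protein were also set against each other. Over both doxycycline states the members differed by between -0.22 (CDKN1A) and 0.12 (RRM2B) for ubAPE1 minus wtAPE1, with an SE of 0.178 and limma adjusted p = 1 for each, and 0.00861% of all rows passed. With doxycycline 7 of 8 members were lower in ubAPE1 than in wtAPE1 cells, from -0.38 (MDM4) to 0.07 (ZMAT3), and without it 6 of 8 were higher, from -0.37 (CDKN1A) to 0.30 (RRM2B). Over all 11619 rows 5511 were lower with doxycycline and 5546 higher without it, and as deposited GADD45A was also higher without it (0.04). None was past 1.5-fold, where 0.456% of rows were with doxycycline and 1.93% without.

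**Figure D3:**
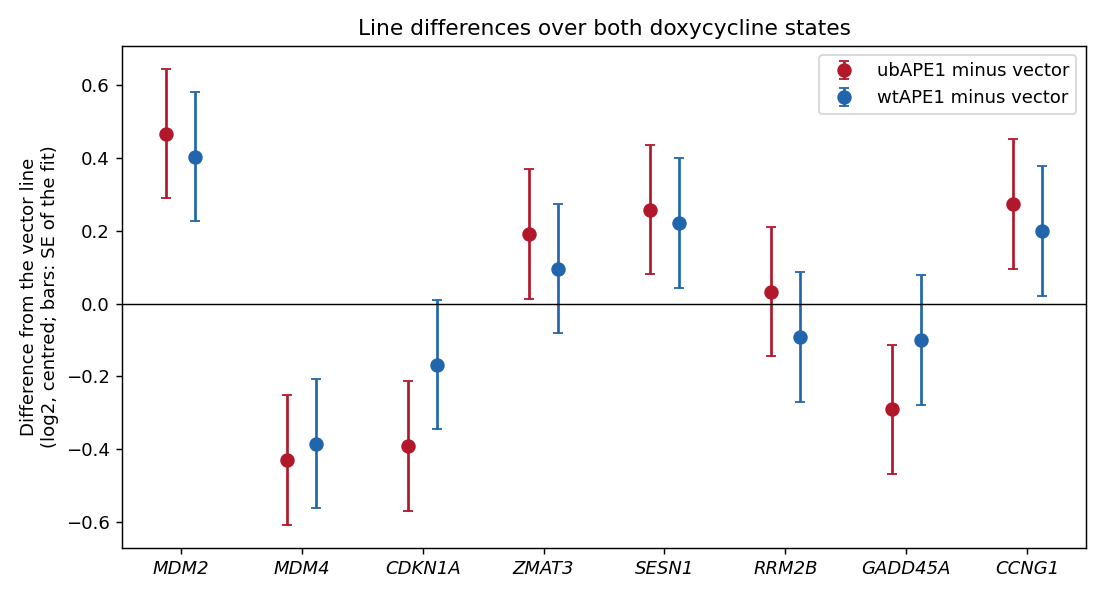
Difference from the vector line over both doxycycline states (log2, vertical axis) for ubAPE1 (red) and wtAPE1 (blue), with bars of 1 SE of the fit (0.178). MDM2 lies highest (0.47 and 0.40) and MDM4 lowest (-0.43 and -0.38), and no member passed the adjusted test.

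The wider pathway was read from lists of p53 regulators and targets drawn up from textbook knowledge, with earlier results of these data known. The lists are thus not independent of these values, and their counts beside the shares of all rows are descriptions. Of 24 regulators and cofactors of p53, 16 were measured and none passed limma's test for ubAPE1 or wtAPE1 against vector. Their differences from vector cells ran from -0.21 (CHEK1) to 0.33 (TRIM28) in ubAPE1 cells and from -0.30 (PPP1R13B) to 0.34 (PPP1R13L) in wtAPE1 cells. TRIM28, a corepressor known to work with MDM2, was at 0.28 in wtAPE1 cells, and PPP1R13L, which encodes the p53 inhibitor iASPP, at 0.19 in ubAPE1 cells. Their medians were -0.04 for each line, beside 0.03 over all rows.

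Genes of the apoptosis list moved in both directions. Of 18 such p53 targets 15 were measured. In ubAPE1 against vector cells 3 passed on the higher side and 2 on the lower, and in wtAPE1 against vector cells 4 and 2, where 1.08% and 3.55% (ubAPE1) and 1.62% and 4.03% (wtAPE1) of all rows did so. The list's medians were 0.22 and 0.26.

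TNFRSF10D, a decoy receptor for the death ligand TRAIL, had centred levels of 9.67 with and 9.63 without doxycycline in ubAPE1 cells, 9.66 with and 9.40 without doxycycline in wtAPE1 cells, and 7.93 with and 7.99 without doxycycline in vector cells. It was 1.69 higher in ubAPE1 and 1.57 higher in wtAPE1 than in vector cells (SE 0.178, limma adjusted p = 1.47e-18 and 5.52e-16). Its APE1-line columns did not overlap the vector columns, as was so for 19.2% of all rows on the higher side. BAX, the effector that permeabilises mitochondria, had 8.49 with and 8.25 without doxycycline in ubAPE1 cells, 8.43 with and 8.48 without doxycycline in wtAPE1 cells, and 7.57 with and 7.56 without doxycycline in vector cells. It was 0.80 higher in ubAPE1 and 0.89 higher in wtAPE1 cells, also with no overlap with the vector columns. EDA2R, a member of the TNF receptor family, was 0.97 and 0.93 higher, at 5.26 to 5.56 over the 4 APE1-line columns and 4.35 and 4.62 in the vector columns. Both vector values of EDA2R lie under the row filter of 5.03. Its row was thus kept only through the APE1-line columns, where it is high, and its calls carry little weight. PERP, a membrane protein of desmosomes that p53 induces in apoptosis, was 0.84 lower in ubAPE1 (log2 difference -0.84) and 0.87 lower in wtAPE1 cells (-0.87), at 8.40 to 8.79 over the APE1-line columns and 9.37 and 9.50 in the vector columns. The other genes that passed, named after their values were seen, were PMAIP1, which encodes NOXA, lower by 0.82 (ubAPE1, -0.82) and 0.86 (wtAPE1, -0.86), and PHLDA3, an inhibitor of AKT signalling, higher by 0.59 in wtAPE1 cells.

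All 5 measured of 6 targets in repair and replication lay above the vector line in both APE1 lines, with medians of 0.52 (ubAPE1) and 0.41 (wtAPE1), where 6550 (ubAPE1) and 6257 (wtAPE1) of all 11619 rows did. As deposited, XPC, which recognises damage in nucleotide excision repair, lay below it in both (-0.09 and -0.06). DDB2, which recognises ultraviolet damage in nucleotide excision repair, passed in ubAPE1 cells (0.56, limma adjusted p = 0.0403), and was 0.42 in wtAPE1 cells (adjusted p = 0.152). RPS27L, a ribosomal protein that p53 induces, passed in both (0.60 and 0.56, adjusted p = 0.0211 and 0.0362), though its levels were uneven within lines, at 6.19 with and 6.88 without doxycycline in ubAPE1 cells, 6.63 and 6.35 in wtAPE1 cells, and 5.49 and 6.38 in vector cells, where the lines overlapped. Leaving out 1 column in turn, its difference ran from 0.26 (without vector cells with doxycycline) to 0.95 in ubAPE1 cells. In wtAPE1 cells it ran from 0.02 (without wtAPE1 cells with doxycycline) to 1.09. Each end of these ranges rests on 1 column of a line, and the call was lost in both comparisons without vector cells with doxycycline. RPS27L has a close paralogue, RPS27, and whether their probes share signal was not tested.

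Of 11 metabolic targets 8 were measured, and 1 passed on the higher side and 2 on the lower in each comparison. Over all rows 1.08% (ubAPE1) and 1.62% (wtAPE1) passed on the higher side, and 3.55% and 4.03% on the lower. TIGAR, which lowers glycolytic flux, was 0.72 higher in ubAPE1 cells (adjusted p = 0.00254) and 0.31 in wtAPE1 cells (adjusted p = 0.31) in limma's test. In ubAPE1 cells it was 6.84 with and 7.26 without doxycycline, and the difference from vector cells was 0.36 without the ubAPE1 column that lacks doxycycline, where it did not pass, and 1.08 without the other. It also did not pass without either of the vector columns. STEAP3, an iron reductase, was lower in both (-0.69 in ubAPE1 and -0.65 in wtAPE1 cells). FUCA1, a lysosomal fucosidase, passed in wtAPE1 cells (-0.65) and was -0.52 in ubAPE1 cells. The wtAPE1 value was -0.28 without the vector column with doxycycline, where it did not pass, and -1.02 without the other vector column, and it also did not pass without either of the wtAPE1 columns. The ubAPE1 value was -0.03 without the ubAPE1 column with doxycycline and -1.01 without the other ubAPE1 column, sizes that each rest on 1 ubAPE1 column. SESN2, a paralogue of SESN1 with a like role, passed on the lower side in ubAPE1 cells (-0.55) and was -0.38 in wtAPE1 cells. SESN1 itself lay on the higher side (0.26 and 0.22). DRAM1, an activator of autophagy named after its values were seen, passed in wtAPE1 cells (0.54).

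Of 18 signalling and secreted targets 11 were measured. Beside the calls in this paragraph, 3.55% (ubAPE1) and 4.03% (wtAPE1) of all rows passed on the lower side, and 1.08% and 1.62% on the higher. ATF3, a stress transcription factor, was lower in both APE1 lines (-0.62 each), and KITLG, the ligand of the KIT receptor, was lower in wtAPE1 cells (-0.64) and at -0.34 in ubAPE1 cells. No gene of this list passed on the higher side. Of 13 measured paralogues of the members only SESN2 passed. Of 10 measured cyclins, kinases and other proteins that p21 binds, only CCND2, which encodes cyclin D2, passed, and it was lower in both lines (-0.63 and -0.62).

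These calls depend on the spread that the fit pools over rows and on the centring. With values as deposited, TNFRSF10D and STEAP3 passed in both comparisons (limma adjusted p = 0.00456 and 0.00666, and 0.0428 and 0.0297), and PERP and ATF3 passed in wtAPE1 minus vector (0.0325 and 0.0352) but not in ubAPE1 minus vector (0.0609 and 0.0627). In that setting BAX (0.0748 and 0.0553), EDA2R (0.0667 and 0.0790), RPS27L (0.624 and 0.499), CCND2 (0.0890 and 0.0579), DDB2 and TIGAR in ubAPE1 cells (0.260 and 0.358), SESN2 in ubAPE1 cells (0.128), and FUCA1 and KITLG in wtAPE1 cells (0.193 and 0.0798) did not. With each row's own variance no row passed in either comparison (993 and 1093 rows had an unadjusted p under 0.05). With each of the 6 columns left out in turn, the TNFRSF10D difference ran from 1.58 to 1.79 in ubAPE1 and from 1.43 to 1.70 in wtAPE1 cells. That of EDA2R, a row kept only through its APE1-line columns, ran from 0.82 to 1.12 and from 0.84 to 1.02. BAX, PERP, RPS27L, DDB2, TIGAR, STEAP3, FUCA1, SESN2, ATF3, KITLG and CCND2 each lost a call without at least 1 column, and in each case a vector column was among these.

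Markers of cell identity moved between the lines as well, and their part in the differences above was not tested. EPCAM, an epithelial adhesion molecule, was -2.95 in ubAPE1 and -2.98 in wtAPE1 cells against vector cells. In each comparison 3 of 8 measured epithelial and kidney markers passed on the lower side (EPCAM, KRT19 and LRP2) and none on the higher. Over all rows 3.55% (ubAPE1) and 4.03% (wtAPE1) passed on the lower side, and 1.08% and 1.62% on the higher. The 8 markers did not move as a set. In each comparison 4 lay above 0 and 4 below, the highest at 0.28 (ubAPE1) and 0.48 (wtAPE1). ENO2 and NEFL of 3 measured neuronal markers passed on the lower side, with summed linear levels of the list of 705 and 724 (ubAPE1), 656 and 746 (wtAPE1) and 1101 and 1147 (vector). COL3A1 of 3 measured fibroblast markers passed on the higher side (0.64 and 0.74) but not as deposited (limma adjusted p = 0.167 and 0.106), with summed levels of 162 and 199 (ubAPE1), 185 and 202 (wtAPE1) and 145 and 158 (vector). As deposited EPCAM, KRT19 and ENO2 passed in both comparisons, and LRP2 and NEFL passed in wtAPE1 minus vector but not in ubAPE1 minus vector (limma adjusted p = 0.0609 and 0.0647). With each column left out in turn, EPCAM and ENO2 passed every time, and KRT19, LRP2, NEFL and COL3A1 each lost a call without at least 1 column. Of the blood and endothelial markers 1 of 7, CD68, was above the filter and it did not pass.

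**Figure D4:**
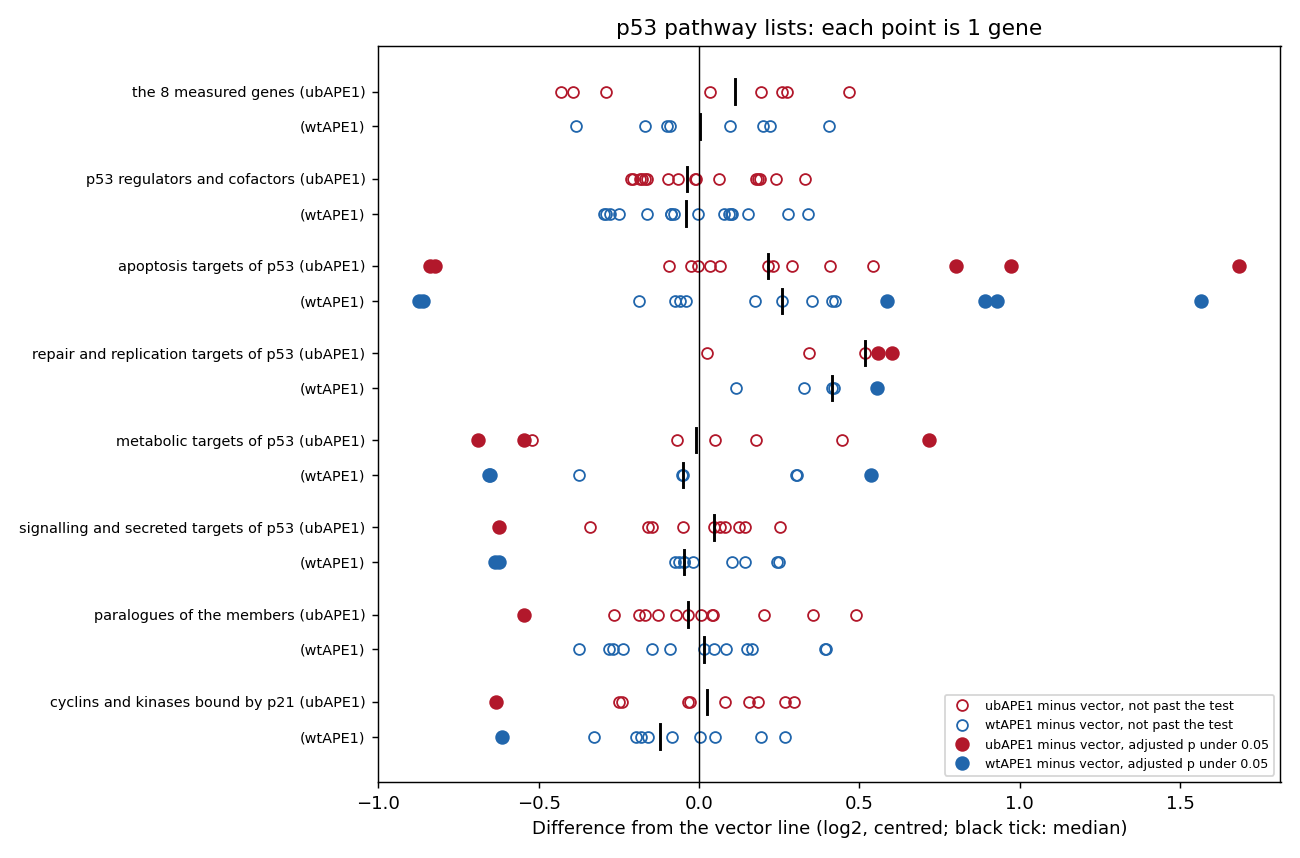
Difference from the vector line (log2, horizontal axis) for each gene of the 8 measured members and of 7 lists of p53 regulators, targets, paralogues and p21 partners, 1 point per gene, for ubAPE1 (red, upper of each pair) and wtAPE1 (blue). Filled points passed limma's adjusted test, and black ticks are medians, which were 0.22 and 0.26 for the apoptosis targets and 0.52 and 0.41 for the repair targets.

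The genes whose levels ran most like MDM2 over the 6 columns, by Pearson correlation among 9652 other kept rows with 1 symbol, were RAE1 (0.996), ANKRD27 (0.994) and SMAD9 (0.993). RAE1, an mRNA export factor, had centred levels of 8.49 to 8.72 in the APE1-line columns and 7.91 and 8.04 in the vector columns, the same division of lines as MDM2. Of those rows 288 correlated with MDM2 above 0.9. Those most like CDKN1A were SAMD10 (0.990), HIP1R (0.990) and ACBD4 (0.987), and 59 rows were above 0.9. With 6 columns from 3 lines these correlations are descriptions, and the 6 points share their lines.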

How the data were processed

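The deposited values are log2 expression levels for 15492 array rows in 6 columns, 1 per group, and per the labels each column stands for 3 biological replicates that the authors averaged. That the scale is log2 follows from the range of the values. How probes were summarised and normalized is not given in the sources used here, and hg 18 is the genome build in the submitters' processing notes. No file gives the number of probes or detection calls behind a value, so the number of columns limits the precision.

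Of the rows, 12616 had 1 gene symbol, 2031 had several and 845 had none, and genes were named only from the first kind. Rows with a mean at or above the 25th percentile (5.03 log2) were kept, which left 11619, and each column was centred on the median of these rows. limma 3.58.1 in R 4.3.3 fitted cell line and doxycycline (2 residual degrees of freedom), with a further term for induced APE1 in a separate fit (1 residual degree of freedom). p-values were adjusted by Benjamini-Hochberg over the 11619 rows, with a threshold of 0.05. Lines or doxycycline states stand in for replicates, and eBayes returned an infinite prior, so that each row was tested against 1 pooled spread (0.178 log2) whatever its own residual. Differences between single columns carry no test and were described by a 1.5-fold size.

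The members and lists were chosen with earlier results of these data known. Named genes were all members, APEX1, from each list up to 4 genes past the threshold by size of difference or else the 2 largest differences, and the 3 rows most like MDM2 and CDKN1A. The fits were tested on simulated data in which every row had the same normal spread, as the tests assume. Promoter sequences are RefSeq's for GRCh38.p14. Alternatives were other filters and scalings, a floor at the 10th percentile, an intensity trend with robust eBayes, a 2-fold size, the additive spread, and leaving out each line or column. Removal of a gene length trend, a test of 1-symbol rows alone and each row's own variance were added after seeing the data.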

Additional observations from a re-analysis of the deposited data

Results flagged for a closer look

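The doxycycline response of CCNG1 was -0.21 in the ubAPE1 line, against 0.20 in the wtAPE1 line and 0.49 in the vector line. The response in ubAPE1 cells thus ran the opposite way to that in both other lines. The difference between responses was -0.41 for ubAPE1 minus wtAPE1 and -0.70 for ubAPE1 minus vector, and with 1 averaged column per group neither difference was tested.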

How the results depend on the processing

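No member passed limma's test in any contrast with all columns and the values centred. Differences near 0 changed sign under some alternatives, for RRM2B in ubAPE1 minus vector under 4 of 15, for ZMAT3 in wtAPE1 minus vector under 2 of 16, for SESN1 in ubAPE1 minus vector and GADD45A in wtAPE1 minus vector under 1 of 16 each, for RRM2B in wtAPE1 minus vector under 1 of 15, and for CCNG1 under 1 of 16 in each comparison with vector. Some of the 15 or 16 alternatives leave a difference unchanged by construction, so these counts overstate how stable the signs are. They are the other variance settings, 1-symbol rows alone, and leaving out the line that a comparison does not use or a column of it. Among alternatives, MDM2 and MDM4 passed in wtAPE1 minus vector only without ubAPE1 columns (limma adjusted p = 0.0262 and 0.0326 without that line). There 2296 of 11619 rows passed, against 656 with all columns. MDM4 in ubAPE1 minus vector was -0.76 without the ubAPE1 column that lacks doxycycline, a size that rests on 1 ubAPE1 column. As deposited, the ubAPE1 response of CDKN1A was -0.03 and that of SESN1 -0.68, past 1.5-fold. GADD45A was then -0.60 in ubAPE1 minus vector with doxycycline, also past it. Without doxycycline, CDKN1A went past 1.5-fold in ubAPE1 minus vector (-0.63), CCNG1 fell inside it (0.57), and MDM4 went past it in wtAPE1 minus vector (-0.64).

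Counts of rows past the test moved as follows. The common doxycycline effect (9 rows) had 0 as deposited, after quantile normalization, with the length trend removed and with each row's own variance (194, 286, 282 and 265 at an unadjusted p under 0.05), 16 with no row filter, 3 at the 50th percentile, and 4 to 31 leaving out a line. wtAPE1 minus vector (656) had 245 as deposited (12 higher, 233 lower), 362 at the 50th percentile, 0 with own variance, and 164 to 2296 leaving out columns. ubAPE1 minus vector (539) had 162 as deposited (10 higher, 152 lower), 298 at the 50th percentile, 0 with own variance, and 142 to 2128 leaving out columns. ubAPE1 minus wtAPE1 (1) had 0 as deposited, after quantile normalization, at the 50th percentile, with the length trend removed, with 1-symbol rows and with own variance (47, 90, 37, 84, 75 and 207 unadjusted), 13 with no row filter, and 1 to 57 leaving out columns. The induction term (0) had 14 with no row filter, 1 at the 50th percentile and 1 with the additive spread.

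Rows past 1.5-fold also moved. The ubAPE1 response (518; 199 higher, 319 lower) had 1039 as deposited (43 higher, 996 lower), 848 with no row filter, 314 with the length trend removed and 14 at 2-fold. The wtAPE1 response (108) had 272 with no row filter and 7 at 2-fold, and the vector response (104) had 264, 7 and, with the length trend removed, 66. ubAPE1 minus vector had 184 at 2-fold with doxycycline (1193), and 703 with no row filter and 112 at 2-fold without it (457). wtAPE1 minus vector had 133 at 2-fold with doxycycline (654), and 1622 as deposited (52 higher, 1570 lower), 1274 with no row filter and 128 at 2-fold without it (828; 317 higher, 511 lower). ubAPE1 minus wtAPE1 had 184 with no row filter and 6 at 2-fold with doxycycline (53), and 772 as deposited (748 higher, 24 lower), 459 with no row filter and 8 at 2-fold without it (224; 102 higher, 122 lower). The causes were not tested beyond the construction of each alternative.

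The main limits are the averaged columns, which hide the spread between replicates, the pooled spread, and the scaling between columns. No paired analysis was possible because each group has 1 averaged column and no replicate numbers. The alternative of other rows for a gene gave no value for the members, which have 1 row each.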
